A study of Mus musculus with 12 samples.

Results

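Gene expression after a small molecule aimed at MBD2 was compared, gene by gene, with gene expression after siRNA against Mbd2 in PYMT-R221A, a tumour line from mouse mammary gland. The quantity of interest was the difference of the 2 effects: the log2 change from control to 40 µM KCC-07, minus the log2 change from scramble siRNA to siRNA against Mbd2 (siMBD2). All genes of the raw count table were members, and all 12 of the 12 libraries entered through their treatment label. The table held 55335 genes, of which 14935 had enough counts to be tested. Polyadenylated RNA was sequenced from 4 groups of 3 libraries, named in the labels as control, KCC-07, siRNA_scramble and siMBD2. The labels name the replicates as biological replicates of 1 cell line. They give no vehicle for the control group, no duration of treatment and no siRNA sequence, and they describe no alteration of the line shared by the groups. The control and scramble groups are separate baselines, so the 2 effects share no library.

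MBD2 is a reader of DNA methylation: it binds methylated CpG sites and brings the NuRD complex, which holds histone deacetylases and a chromatin remodeller, to silenced promoters. KCC-07 is described as a compound that keeps MBD2 from binding methylated DNA, whereas siRNA removes the mRNA and, with time, the protein. In tumour cells MBD2 is known for holding methylated promoters silent, among them that of Adgrb1, which encodes the adhesion receptor BAI1. A positive difference below means that a gene's log2 change from control with the compound exceeded its log2 change from scramble siRNA with the knockdown. It does not mean that the level itself was higher under KCC-07 than with siMBD2. Genes are given by the symbols that the table pairs with Ensembl identifiers, and positions are on GRCm38.

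The libraries held 25.8 to 34.0 M counts. Levels are given as CPM, the count scaled to a common library size with TMM factors. Mitochondrially encoded transcripts took 1.45% to 3.90% of the counts, and within every group replicate 3 held the largest share and lay farthest from the other 2 libraries. The leading counts of genes below are also given for a fit that pairs same-numbered libraries within the compound arm and within the siRNA arm (the replicate block), and for a fit without the replicate 3 libraries where that moves it. Of the 10 mammary epithelium markers all passed the count filter, with a summed level of 1630 to 1830 CPM in control, 1940 to 2020 CPM under KCC-07, 2040 to 2180 CPM with scramble siRNA and 1920 to 2130 CPM with siMBD2. Of the 11 macrophage and leukocyte markers 3 passed: Cd14, with group means of 136, 113, 84.9 and 80.9 CPM in control, KCC-07, scramble siRNA and siMBD2, and Csf1r and Cd68, at most 7.61 and 7.25 CPM in any library. The other 8, among them Ptprc, Adgre1, Itgam and Lyz2, stayed below 1 CPM in every library, and the list's sum ran from 116 to 173, 105 to 131, 73.6 to 96.8 and 79.2 to 86.3 CPM in the same order. Of 8 endothelial markers 2 passed, Erg with group means of 6.13, 1.37, 8.46 and 9.69 CPM and Pecam1 with 3.17, 3.83, 1.55 and 1.18 CPM in that order. Cdh5, Tie1 and Cldn5 were at 0 counts throughout, and none of 6 adipocyte markers passed. Of 10 fibroblast markers 6 passed (Pdgfra, Pdgfrb, Col1a1, Col1a2, Fap and Postn), while Thy1 was at 0 counts. Col1a2 and Fap reached at most 0.546 and 0.444 CPM in any library. The fibroblast sum was 215 to 298 CPM in control, 110 to 165 CPM under KCC-07, at least 180 CPM with scramble siRNA and 196 to 210 CPM with siMBD2. In bulk RNA, fewer cells of a type and less RNA per cell cannot be told apart.

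Mbd2 mRNA separated the 2 treatments. Mbd2 stood at 72.9, 75.9 and 76.5 CPM in control, 75.1, 72.8 and 77.1 CPM under KCC-07, 75.8, 83.2 and 72.5 CPM with scramble siRNA and 35.7, 34.7 and 30.6 CPM with siMBD2. The siMBD2 libraries lay below all 9 others, and the KCC-07 libraries overlapped the control libraries. With the siRNA the mean ± SD (n = 3) fell from 77.2 ± 5.47 CPM to 33.7 ± 2.71 CPM, a log2 change of -1.2. It was 75.1 ± 1.94 CPM in control and 75 ± 2.16 CPM under KCC-07. The difference of the effects was 1.19 (SE 0.12; Benjamini-Hochberg adjusted p = 0.00539 from the quasi-likelihood test of edgeR). It stayed past the threshold of 0.05 in each of the 12 fits that left out 1 library. Mbd3, which encodes the alternative NuRD subunit of the same family, had effects of -0.26 with the compound and -0.055 with the knockdown (difference -0.2, edgeR adjusted p = 0.732). Adgrb1 stood at 0.82, 0.266 and 1.3 CPM in control, 1.02, 0.168 and 1.04 CPM under KCC-07, 0.597, 0.713 and 0.911 CPM with scramble siRNA and 0.785, 0.706 and 1.24 CPM with siMBD2. The 4 groups of Adgrb1 values overlap, and its difference of -0.42 had a 95% interval from -2.34 to 1.5. A 2-fold difference in either direction was thus not excluded. With the block the interval ran from -1.47 to 0.62. For the difference, Mbd2 was the only one called of 15 MBD2-NuRD subunit genes and of 13 methyl-CpG binding protein genes, with or without the block. Of all genes tested 0.656% were called without the block and 6.9% with it. Dnmt1, the maintenance DNA methyltransferase, had effects of 0.079 and -0.29 and a difference that did not pass (edgeR adjusted p = 0.363).

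Over all genes, the changes with the compound and with the knockdown were nearly uncorrelated. Across the 14935 genes the log2 effects correlated with a Pearson r of 0.0428 and a Spearman coefficient of 0.0308, and 52.0% of genes had the same sign in both. Genes are not independent replicates, so these are descriptions with no p. With genes of at least 2 CPM on average (11929 genes) they were 0.100 and 0.052. In single replicate pairs, any pair of the compound arm and any pair of the siRNA arm correlated with r between -0.00733 and 0.0758. Pairs within the compound arm correlated with r = 0.353 to 0.422, and pairs within the siRNA arm with 0.161 to 0.187. Pairs within an arm differ in depth but share the treatment, whereas pairs of different arms share neither library nor agent.

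More genes passed the threshold with the compound than with the knockdown. The SD of the log2 effects was 0.555 with KCC-07 and 0.403 with siMBD2, and the median absolute effect 0.235 and 0.115. An absolute log2 effect of at least 1 was reached by 923 genes with KCC-07 and 339 genes with siMBD2, while the median standard error was 0.171 for both. At a Benjamini-Hochberg adjusted p under 0.05 in edgeR, 844 genes changed with the compound (5.65% of those tested, 534 higher, which is 3.58%, and 310 lower, which is 2.08%). With the knockdown 6 genes changed (0.0402%), all of them lower. With the replicate block the counts were 3251 (21.8%) and 112 (0.75%, 63 higher, 0.422%, and 49 lower, 0.328%). Among the 844 genes called with the compound, 443 (52.5%) had the same sign with the knockdown, and their median siMBD2 effect was -0.0035.

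**Figure D1:**
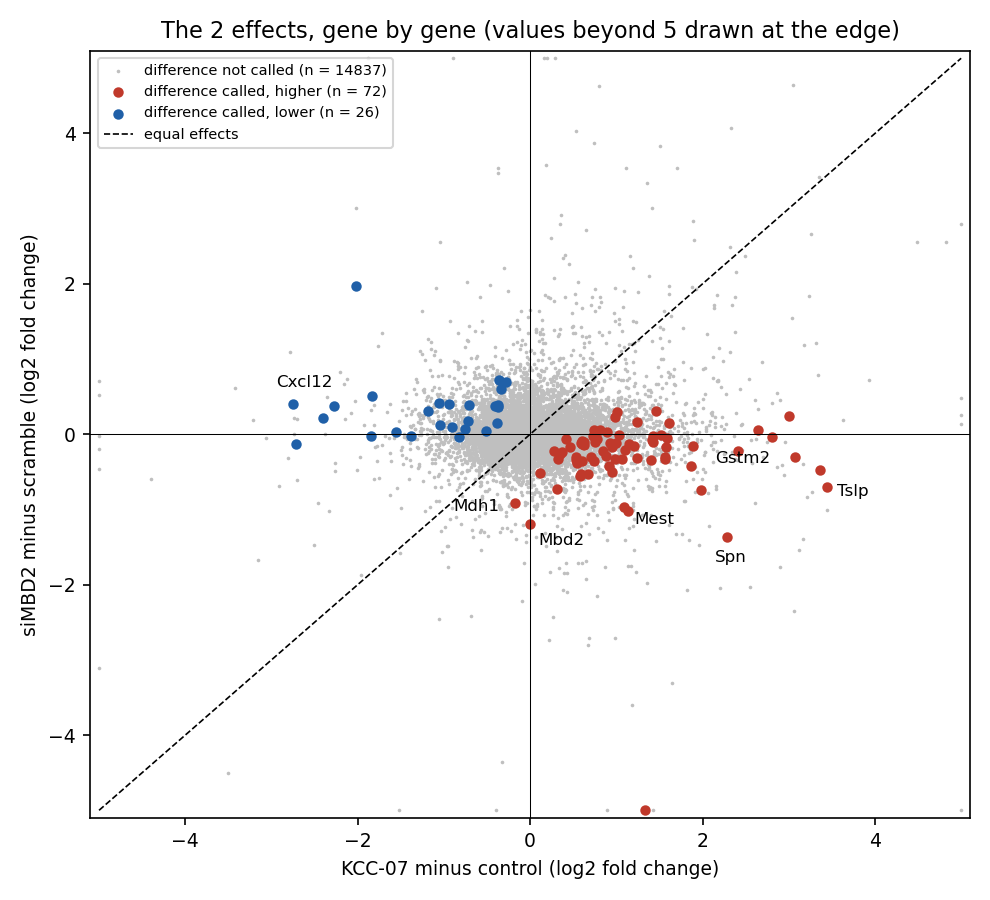
Each point is 1 of 14935 genes, with the log2 fold change of KCC-07 against control on the x axis and that of siMBD2 against scramble siRNA on the y axis. Red and blue points are the 72 and 26 genes whose difference of effects passed the threshold; most spread along the x axis near y = 0, and the dashed line marks equal effects.

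The difference of the effects passed the threshold for 98 genes (0.656% of those tested): 72 had the higher change with the compound (0.482%) and 26 the lower (0.174%). With the replicate block it passed for 1030 (6.9%, 695 higher and 335 lower), with the same sign for all 98. All 98 were also among the 1583 genes called without the replicate 3 libraries and the 575 called by DESeq2. An unadjusted p under 0.05 was reached by 2174 genes (14.6%, with 8.38% higher and 6.18% lower). Of the 98 genes, 89 were called with the compound itself (67 higher and 22 lower) and 2 with the knockdown. The other 7 passed in neither effect alone and had effects of opposite sign. The 2 effects had opposite signs for 82 of the 98, and 62 differed by at least 2-fold. Opposite signs make a difference larger, so choosing genes by their difference favours such counts. The 3 pair values of the compound arm lay wholly above or below those of the siRNA arm for all 98, against 34.7% of all genes tested. The 98 were chosen by the difference in these same libraries, which favours such a separation, so it adds no support.

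What was not called is not thereby equal. The 95% interval of the difference had a median half-width of 0.528 on the log2 scale. It lay within ±0.5 for 19.4% of genes and within ±1 for 60.0%.

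The 12 genes with the largest positive difference at 2 CPM or more were Tslp, Spn, Gstm2, Gcnt2, Tmprss2, Atg9b, Ablim1, Mettl7b, Mest, Arfgef3, Csgalnact1 and Ocln. All 12 rose with KCC-07, and none passed the threshold with siMBD2, where only 0.0402% of all genes did. Tslp, an epithelial cytokine that primes type 2 immunity, had the largest difference. Tslp stood at 3.48, 4.93 and 0.812 CPM in control, 21.5, 24.2 and 54.4 CPM under KCC-07, 4.34, 4.4 and 2.88 CPM with scramble siRNA and 3.14, 2.52 and 1.47 CPM with siMBD2. The KCC-07 libraries stood above the other 9, with replicate 3 more than 2-fold above the rest of its group. The difference was 4.15 (SE 0.77, edgeR adjusted p = 0.0412), made of 3.44 with the compound and -0.71 with the knockdown. Spn encodes sialophorin (CD43), a surface mucin best known from leukocytes. Spn stood at 1.67, 1.93 and 2.38 CPM in control, 8.22, 6.1 and 14.9 CPM under KCC-07, 1.92, 1.47 and 1.64 CPM with scramble siRNA and 0.41, 0.672 and 0.861 CPM with siMBD2. It rose with the compound (2.28) and had an effect of -1.36 with the knockdown that did not pass (edgeR adjusted p = 0.455). The difference was 3.65 (SE 0.5, edgeR adjusted p = 0.0136).

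Ablim1, which encodes an actin-binding LIM protein, gave one of the most stable differences. Ablim1 stood at 15.1, 15.7 and 14.3 CPM in control, 54.2, 46.6 and 63.8 CPM under KCC-07, 27.1, 28.2 and 18.6 CPM with scramble siRNA and 19.4, 20.1 and 15.6 CPM with siMBD2. The KCC-07 libraries stood above all others, while the siMBD2 libraries overlapped the scramble libraries. The effects were 1.87 with the compound and -0.43 with the knockdown, the second not past the threshold (edgeR adjusted p = 0.845). The difference was 2.29 (SE 0.24, edgeR adjusted p = 0.00539). Gstm2, a glutathione transferase gene, stood at 3.89, 4.62 and 8.62 CPM under KCC-07 and at or below 1.43 CPM in all other libraries (difference 3.37). Gcnt2, a glycosyltransferase gene that branches poly-N-acetyllactosamine chains, stood at 6.79, 6.84 and 7.03 CPM under KCC-07 and at or below 1.17 CPM elsewhere (difference 2.77). In both genes the 3 compound libraries stood well clear of every other library.

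Over the called genes the scramble and control libraries also stood apart, by these medians. Over the 72 genes with a higher difference the median log2 values were 0.969 with the compound, -0.22 with the knockdown and 0.535 for scramble against control. Over the 26 with a lower difference they were -0.923, 0.341 and -0.463. Scramble against control uses libraries of both effects, so these values are not independent. Tmprss2, a membrane serine protease gene, stood at 0.937, 1.03 and 1.04 CPM in control, 4.03, 4.62 and 7.43 CPM under KCC-07, 5.66, 5.19 and 5.1 CPM with scramble siRNA and 5.09, 4.61 and 3.95 CPM with siMBD2. Only the control group was low, so the KCC-07 and siRNA-treated levels overlap, beside a difference of 2.64 (edgeR adjusted p = 0.00796). Ocln, which encodes the tight junction protein occludin, had the same shape, at 3.37, 3.7 and 3.28 CPM in control, 8.15, 9.88 and 12.7 CPM under KCC-07, 12.3, 9.39 and 7.43 CPM with scramble siRNA and 9.15, 8.64 and 5.8 CPM with siMBD2 (difference 1.88). Scramble against control gave 2.4 for Tmprss2 and 1.5 for Ocln, a comparison that passed for 8.79% of all genes (4.71% higher and 4.08% lower). Arfgef3 (2.05), the chondroitin sulfate synthesis gene Csgalnact1 (1.89), Mettl7b (2.16) and the autophagy gene Atg9b (2.6) completed the group, with these differences.

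The 12 genes with the largest negative difference were Cxcl12, A2m, Scrg1, Cytl1, Oxtr, Olfml3, Drp2, Ccdc80, Arhgap40, Slc26a7, Klhdc7a and Fxyd6. All 12 fell with KCC-07, and none passed with siMBD2 (0.0402% of all genes). Several encode secreted proteins. Cxcl12, the chemokine that signals through CXCR4, led the group. Cxcl12 stood at 28.6, 30.4 and 44.6 CPM in control, 5.9, 6 and 3.42 CPM under KCC-07, 16.8, 18.1 and 29.3 CPM with scramble siRNA and 24.8, 23.2 and 37.2 CPM with siMBD2. The KCC-07 libraries stood below all others without overlap, and each siMBD2 library lay above the scramble library of the same number. The difference was -3.16 (SE 0.41, edgeR adjusted p = 0.00959). A2m, which encodes the protease inhibitor alpha-2-macroglobulin, stood at 6.97, 7.39 and 7.71 CPM in control and 1.81, 1.64 and 1.08 CPM under KCC-07, and at 5.09, 4.36 and 6.27 CPM with scramble siRNA and 7.38, 5.65 and 7.43 CPM with siMBD2 (difference -2.66, edgeR adjusted p = 0.00676). Cytl1, a secreted cytokine-like protein gene, stood at 3.72, 5.2 and 5.77 CPM in control and 0.887, 0.67 and 0.669 CPM under KCC-07, and at 3.24, 4.24 and 4.04 CPM and 3.79, 3.23 and 3.54 CPM with scramble siRNA and siMBD2 (difference -2.59). For A2m and Cytl1 too, the KCC-07 libraries lay below every other library. The oxytocin receptor gene Oxtr differed by -2.34, the secreted matrix protein genes Olfml3 and Ccdc80 by -1.82 and -1.5, and the dystrophin family gene Drp2 by -1.59. Scrg1 (-2.62), the anion transporter gene Slc26a7 (-1.36), Arhgap40 (-1.47), Klhdc7a (-1.35) and the sodium pump regulator gene Fxyd6 (-1.17) followed. The whole-marker fibroblast sum given above was also lowest with KCC-07, but its markers did not move together. In control, KCC-07, scramble siRNA and siMBD2, Postn had group means of 48.2, 5.79, 51 and 49.4 CPM and Col1a1 33.3, 22, 30.3 and 29.8 CPM. Pdgfra had 151, 110, 110 and 119 CPM and Pdgfrb 16.6, 7.2, 3.29 and 2.74 CPM in that order. The part of a changed mix of cells in these differences was not tested.

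**Figure D2:**
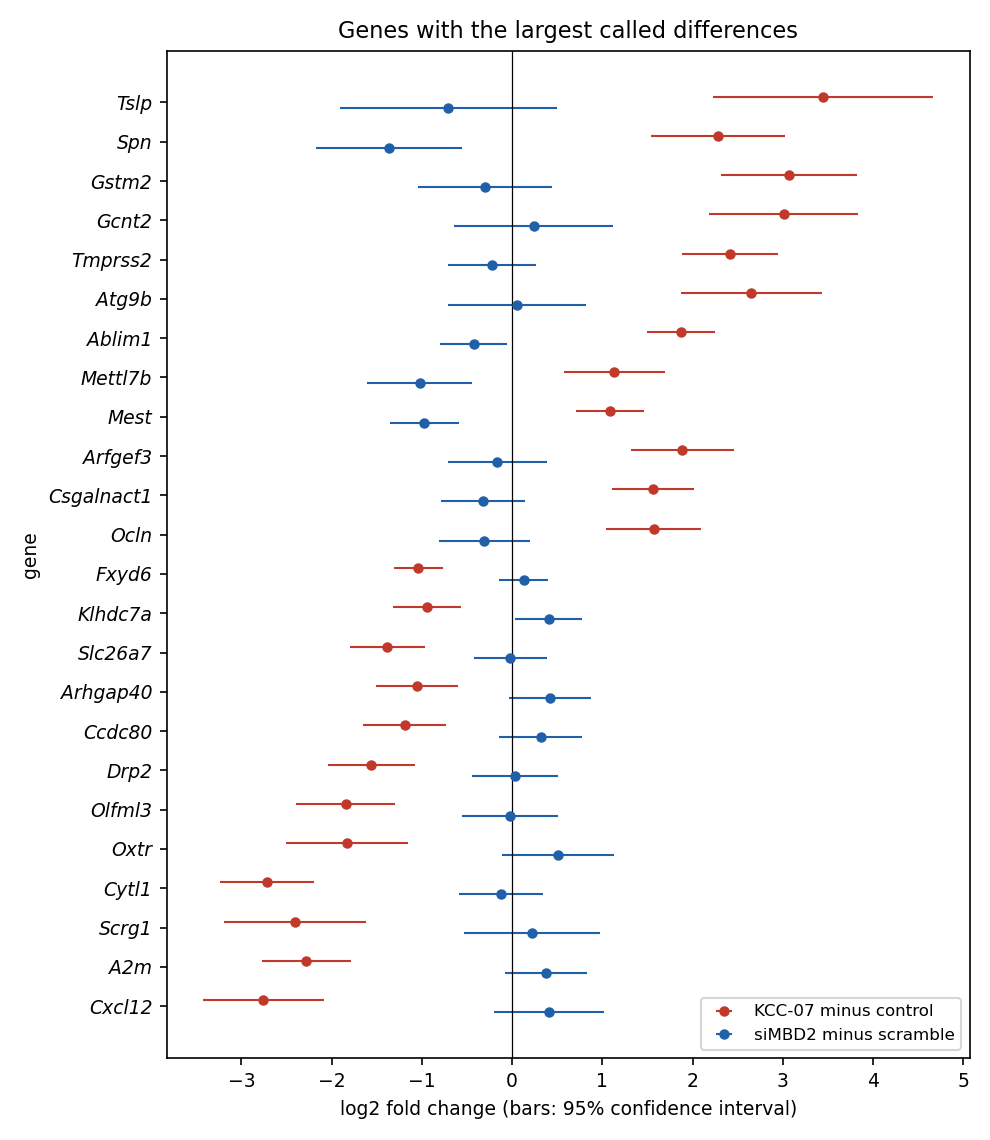
For the 24 genes with the largest called differences at 2 CPM or more, red points are the log2 fold change with KCC-07 and blue points that with siMBD2; bars are 95% confidence intervals from the fit over all genes. The red points lie on 1 side of 0 for each set of 12, while most blue intervals include 0.

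These 24 calls kept their sign in every fit and stayed past the threshold with the block, with DESeq2 and without replicate 3. Most were lost in at least 1 of the fits that left out 1 library. Only Tmprss2, Ablim1, Mest, Cxcl12, A2m and Cytl1 of the 24 passed in all 12 such fits. Gcnt2, Oxtr and Slc26a7 passed in 2 of the 12 and Tslp in 4. The number of the 24 that still passed was 11, 13 and 24 without control replicate 1, 2 or 3, and 15, 15 and 24 without KCC-07 replicate 1, 2 or 3. It was 6, 7 and 11 without scramble replicate 1, 2 or 3, and 8, 6 and 8 without siMBD2 replicate 1, 2 or 3. Tslp, Atg9b, Ablim1, Gcnt2, Mettl7b, Arfgef3, Csgalnact1 and Mest overlap annotated genes on the opposite strand, and since the strand setting of the counting is not given in the sources used here their values are uncertain.

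A small set of genes moved in opposite directions with the 2 agents. Mest, an imprinted gene that encodes an alpha/beta hydrolase family protein (chromosome 6, from 30723547 to 30748465), was the clearest. Mest stood at 9.19, 7.86 and 5.88 CPM in control, 19, 15.6 and 14 CPM under KCC-07, 11, 11.4 and 10.5 CPM with scramble siRNA and 5.91, 5.58 and 5.29 CPM with siMBD2. The KCC-07 libraries stood above all others and the siMBD2 libraries below the scramble libraries. Its pair changes were 1.04, 0.98 and 1.24 with the compound and -0.89, -1.02 and -0.98 with the knockdown. The compound effect passed the threshold (1.08), and the knockdown effect of -0.97 passed with the block (edgeR adjusted p = 0.00806) and not without it (0.117). The difference was 2.06 (SE 0.24, edgeR adjusted p = 0.00676). Mest was the one called of 14 measured imprinted genes, where 0.482% of all genes were called higher. It overlaps Copg2 on the opposite strand.

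No gene passed the threshold in both effects without the block, in the same or in opposite directions. At an unadjusted p under 0.05 in both, 141 genes (0.944%) had the same sign and 106 (0.71%) opposite signs, and DESeq2 called 7 and 3. With the block, 52 genes passed in both: 40 in the same direction (0.268%) and 12 in opposite directions (0.0803%). They were 46.4% of the 112 genes called with the knockdown and 1.6% of the 3251 called with the compound in that fit. Of the 12, 10 were higher with the compound and lower with the knockdown (0.067%) and 2 the reverse (0.0134%). The difference itself passed for all 12, which 2 passing effects of opposite sign make likely. Hook1, a gene for a microtubule-binding adaptor, stood at 36.2, 38.5 and 48.7 CPM in control and 53.2, 57 and 74 CPM under KCC-07, but at 67.6, 66.7 and 67.4 CPM with scramble siRNA and 44.7, 48.2 and 45 CPM with siMBD2 (difference 1.13, edgeR adjusted p = 0.0312). Fam126a, which encodes hyccin of the plasma membrane phosphatidylinositol 4-kinase complex, stood at 67.4, 70.5 and 73.5 CPM in control and 83.6, 85.5 and 92.9 CPM under KCC-07, and at 82.6, 83.4 and 70.6 CPM and 49.1, 55.4 and 38.3 CPM with scramble siRNA and siMBD2 (difference 1.04, edgeR adjusted p = 0.0312). Plau, the urokinase gene, stood at 43.2, 43.7 and 37 CPM in control and 54.2, 50.4 and 53.7 CPM under KCC-07, and at 16.3, 18.4 and 26 CPM and 11.3, 11.1 and 13.9 CPM with scramble siRNA and siMBD2 (difference 1.09, edgeR adjusted p = 0.0604, and 0.00855 with the block). For these genes each agent's libraries lay on opposite sides of their own baseline, without overlap. Itprid2, the insulin receptor substrate gene Irs2, the calcium sensor gene Stim2 and Ttc39b had compound effects of 0.35, 0.25, 0.25 and 0.57 and knockdown effects of -0.46, -0.39, -0.45 and -0.45. The reverse order, lower with the compound and higher with the knockdown, was held by Vwa5a (-0.35 and 0.73) and Dnajc30 (-0.34 and 0.6), a mitochondrial co-chaperone gene. Hook1, Irs2, Stim2 and Dnajc30 overlap genes on the opposite strand and are uncertain.

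Vwa5a, Fam126a and Dnajc30 were also among the 7 genes whose difference passed although neither effect did without the block. Others of the 7, chosen after their values were seen, were Atp2a2, Ctxn1 and Atraid. Atp2a2, which encodes the SERCA2 calcium pump of the endoplasmic reticulum, stood at 519, 523 and 540 CPM with scramble siRNA and 370, 368 and 370 CPM with siMBD2, against 346, 411 and 394 CPM in control and 418, 426 and 400 CPM under KCC-07 (difference 0.63, edgeR adjusted p = 0.0339). Here the scramble libraries stood apart from the other 9. Ctxn1 differed by -0.98 and Atraid by -0.74. Atp2a2 and Atraid overlap other genes on the opposite strand and are uncertain. The calls for Hook1, Fam126a, Vwa5a, Dnajc30, Atp2a2, Ctxn1 and Atraid held in 2 to 5 of the 12 fits that left out 1 library.

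The 6 genes called with the knockdown were Mbd2, Mdh1, Rcn2, Selenot, Twf1 and Hif1a, the last named after its values were seen. Mdh1, the cytosolic malate dehydrogenase gene, stood at 294, 302 and 326 CPM with scramble siRNA and 162, 165 and 163 CPM with siMBD2, against 318, 309 and 278 CPM in control and 260, 269 and 274 CPM under KCC-07. The siMBD2 libraries lay below all others, and the difference of 0.74 passed (edgeR adjusted p = 0.017), as for Mbd2. Rcn2 (-0.25 and -0.71), a calcium-binding protein gene of the secretory pathway, Selenot (-0.024 and -0.56), a selenoprotein gene, Twf1 (-0.18 and -0.56), an actin monomer-binding protein gene, and Hif1a (-0.028 and -0.48), the hypoxia-inducible transcription factor gene, had these compound and knockdown effects. Their differences did not pass, with edgeR adjusted p of 0.0799, 0.0654, 0.115 and 0.067. With the block the differences of Rcn2, Selenot and Hif1a passed and that of Twf1 did not. An unadjusted p under 0.05 with the knockdown was reached by 5.26% of all genes (2.6% higher and 2.66% lower). Mdh1, Twf1 and Hif1a overlap genes on the opposite strand and are uncertain. In the same direction, 6 genes were lower with both agents in the blocked fit. Among them, chosen after their values were seen, were Btf3, a nascent polypeptide-associated complex gene, with -0.5 and -0.52, and the chromatin protein gene Morf4l1, with -0.28 and -0.55. For Btf3 the difference of 0.021 had a 95% interval from -0.35 to 0.39. Btf3 and Morf4l1 overlap Gm9828 and Gm26882 on the other strand and are uncertain.

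Interferon response genes made up 19 of the 34 genes that rose with both agents in the blocked fit. The 34 were 0.228% of the genes tested, and the list of type I interferon response genes had 41 measured members. Type I interferons act through receptor-bound kinases on transcription factors that bind the interferon response element in promoters of antiviral genes. Cytosolic RNA sensors such as RIG-I (Ddx58) and MDA5 lie upstream. In the list 36 of 41 members lay above 0 with KCC-07 and 41 of 41 with siMBD2, with median log2 effects of 0.794 and 1.42, against medians over all genes of 0.015 and 0.0035. Without the block none passed in either effect, 10 and 24 had an unadjusted p under 0.05 (against 25.1% and 5.26% of all genes), and DESeq2 called 2 with siMBD2. With the block 25 rose and 1 fell with KCC-07 (12.8% and 9% of all genes) and 26 rose with siMBD2 (0.422%).

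The promoters of 4 of these genes are printed, since the genes stood higher with both agents and the element the list is known for can be read in them. Capitals mark the core of the interferon response element, 2 GAAA runs parted by any 2 bases, read on either strand (overlapping matches run together). Each sequence runs 5′ to 3′ in the direction of the gene, from 250 bases before to 50 after the RefSeq start, on GRCm38.p6.

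Ifit1 (chr19:34640639-34640938, plus strand): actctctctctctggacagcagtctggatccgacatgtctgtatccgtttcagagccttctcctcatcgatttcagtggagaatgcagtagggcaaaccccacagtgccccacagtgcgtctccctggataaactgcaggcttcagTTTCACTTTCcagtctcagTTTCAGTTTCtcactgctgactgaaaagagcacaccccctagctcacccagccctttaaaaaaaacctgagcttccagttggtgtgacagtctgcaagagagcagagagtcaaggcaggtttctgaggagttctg

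Rsad2 (chr12:26456403-26456702, minus strand): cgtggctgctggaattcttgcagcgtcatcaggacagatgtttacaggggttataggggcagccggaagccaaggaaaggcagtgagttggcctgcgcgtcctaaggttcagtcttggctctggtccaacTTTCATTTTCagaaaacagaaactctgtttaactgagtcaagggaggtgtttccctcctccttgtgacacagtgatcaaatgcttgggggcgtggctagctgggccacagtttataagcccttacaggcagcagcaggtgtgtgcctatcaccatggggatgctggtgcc

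Oas1a (chr5:120907476-120907775, minus strand): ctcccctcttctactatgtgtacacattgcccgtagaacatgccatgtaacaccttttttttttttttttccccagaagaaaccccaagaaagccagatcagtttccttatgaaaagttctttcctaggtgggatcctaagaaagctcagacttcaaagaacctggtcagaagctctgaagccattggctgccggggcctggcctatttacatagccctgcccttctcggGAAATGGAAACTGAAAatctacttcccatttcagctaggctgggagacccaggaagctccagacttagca

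Ddx58 (chr4:40239776-40240075, minus strand): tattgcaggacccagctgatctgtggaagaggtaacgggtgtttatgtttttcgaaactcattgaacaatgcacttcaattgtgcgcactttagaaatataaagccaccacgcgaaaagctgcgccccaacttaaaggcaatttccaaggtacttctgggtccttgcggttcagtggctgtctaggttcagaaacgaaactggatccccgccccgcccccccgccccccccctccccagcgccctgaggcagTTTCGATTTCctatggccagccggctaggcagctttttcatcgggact

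The core was found in 3.49% of all 27025 promoters in the RefSeq table. Only 66.7% of the 42 list members and 69.7% of the genes tested had an entry there, below the 80% needed, so no share over the list or over the called genes is given. A match describes these letters and is not a measured binding site.

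Ifit1, which encodes an antiviral RNA-binding protein, showed how the levels were arranged. Ifit1 stood at 1.52, 2.73 and 1.13 CPM in control, 6.31, 5.43 and 4.61 CPM under KCC-07, 9.49, 9.94 and 67 CPM with scramble siRNA and 35.2, 29 and 276 CPM with siMBD2. Every KCC-07 library stood above every control library and every siMBD2 library above the scramble library of its number, while scramble replicate 3 exceeded siMBD2 replicates 1 and 2. The pair changes were 2.0, 0.97 and 1.97 with the compound and 1.88, 1.54 and 2.04 with the knockdown. The difference of -0.36 did not pass, with a 95% interval from -3.3 to 2.58, and from -0.84 to 0.44 with the block. Oas1a, a gene for a double-stranded RNA-activated oligoadenylate synthetase, stood at 0.615, 0.799 and 0.58 CPM in control, 2.63, 2.25 and 2.45 CPM under KCC-07, 2.98, 2.54 and 16 CPM with scramble siRNA and 11.7, 9.14 and 62.4 CPM with siMBD2. Its pair changes were 1.98, 1.42 and 1.96 and 1.95, 1.82 and 1.96, and with the block the difference had a 95% interval from -0.61 to 0.5. It has a near-identical copy, Oas1g. Ddx58 stood at 118, 110 and 114 CPM in control, 188, 164 and 199 CPM under KCC-07, 151, 149 and 250 CPM with scramble siRNA and 280, 258 and 574 CPM with siMBD2, with pair changes of 0.68, 0.58 and 0.81 and 0.9, 0.79 and 1.2. For Ifit1 and Oas1a the pair changes with the 2 agents overlapped, and the scramble levels lay above the control levels. For Ddx58 the change with siMBD2 was the larger in each pair, and its difference did not pass with the block. Irf9 (0.79 and 1.36), Ifi44 (2.32 and 2.49), Slfn8 (2.5 and 2.37) and Apol9a (2.13 and 1.72) rose with both agents in the blocked fit, with these compound and knockdown effects.

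Within the list the 2 effects were not equal throughout. With the block the difference passed for 15 members, 12 lower and 3 higher (background 2.24% and 4.65%), and for none without it, where edgeR gave none an unadjusted p under 0.05 and DESeq2 called 0. Of 41 members 31 had the larger effect with the knockdown, and the list's median difference was -0.51, with pair medians of -0.76, -0.57 and -0.39. Irf7, the transcription factor that amplifies interferon production, stood at 1.38, 2.1 and 2.9 CPM in control, 3.79, 4.69 and 5.76 CPM under KCC-07, 4.21, 3.49 and 33.4 CPM with scramble siRNA and 33.4, 23 and 155 CPM with siMBD2 (pair changes 1.42, 1.14 and 0.97 and 2.97, 2.7 and 2.21; edgeR adjusted p of the difference with the block = 0.0161). Zbp1, a sensor of Z-form nucleic acid, stood at 12.1, 10.8 and 11.9 CPM in control and 10.1, 10.2 and 11 CPM under KCC-07, and at 9.9, 9.11 and 24.4 CPM with scramble siRNA and 21.3, 17.3 and 62.5 CPM with siMBD2 (edgeR adjusted p with the block = 0.00649). In Zbp1 each KCC-07 library stood below its control partner by a small amount, and each siMBD2 library stood above its scramble partner. Parp9 (-0.039 and 0.95), and, chosen after their values were seen, Oasl2 (0.24 and 1.81) and Isg15 (0.48 and 1.62) also had the larger value with siMBD2. The 3 members called in the reverse order were Rsad2, Oasl1 and Cxcl10, the last 2 chosen after their values were seen. Rsad2, which encodes viperin, stood at 1.81, 1.6 and 0.754 CPM in control, 14.7, 14.6 and 12 CPM under KCC-07, 12.6, 11.1 and 64.3 CPM with scramble siRNA and 26.5, 22.1 and 155 CPM with siMBD2. Its pair changes were 2.97, 3.14 and 3.88 with the compound and 1.07, 0.99 and 1.27 with the knockdown, without overlap (difference 2.1, edgeR adjusted p = 0.438, and 0.00423 with the block). Oasl1 had effects of 2.69 and 0.96, and the chemokine gene Cxcl10 of 1.66 and 0.77. Irf7, Parp9, Oasl1 and Cxcl10 overlap genes on the opposite strand and Isg15 has a near-identical copy, so they are uncertain.

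**Figure D3:**
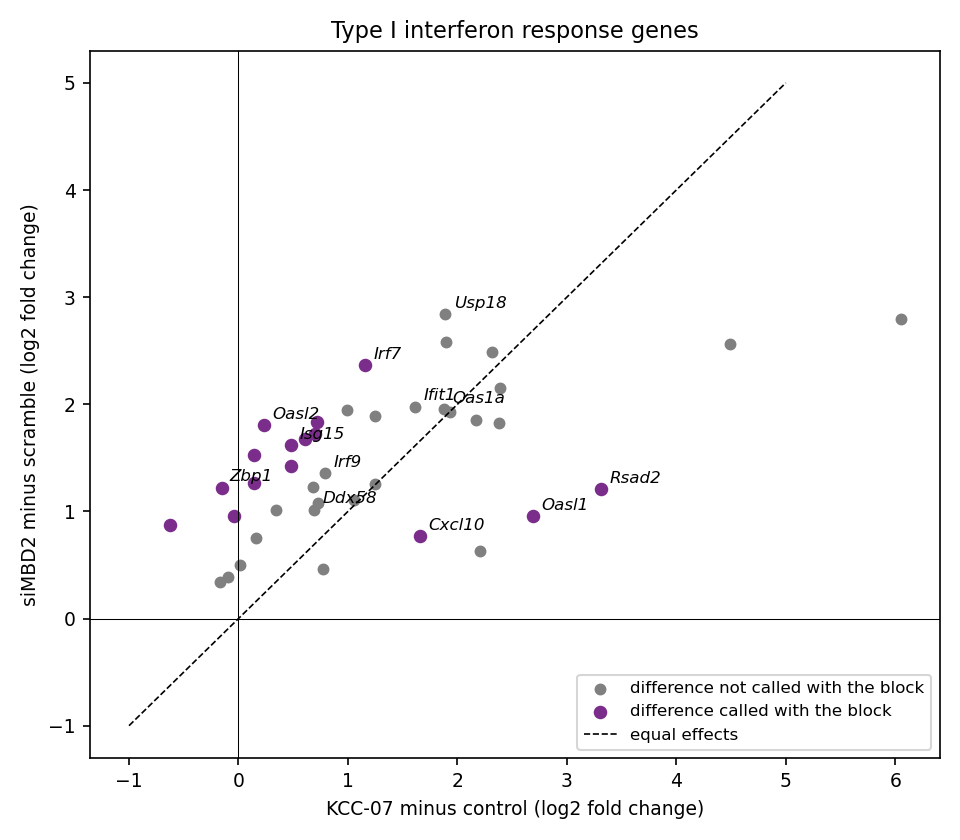
Each point is 1 of 41 measured type I interferon response genes, with the log2 fold change of KCC-07 on the x axis and of siMBD2 on the y axis; purple points are the 15 whose difference passed with the replicate block and the dashed line marks equal effects. All points lie above y = 0, and the 3 purple points to the right of the line are Rsad2, Oasl1 and Cxcl10.

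Levels of the list differed between the baselines and, in the siRNA arm, were highest in replicate 3. The summed level of the list was 672, 719 and 590 CPM in control and 908, 846 and 800 CPM under KCC-07. In these 2 groups replicate 3 was the lowest. The sum was 774 and 755 CPM in scramble replicates 1 and 2 and 1810 CPM in replicate 3, and 1510, 1300 and 4650 CPM in the siMBD2 libraries. Scramble against control, which shares its libraries with both effects, had a list median of 1.46. Whether the siRNA itself or the batch of replicate 3 had a part in the list's levels was not tested. Without the replicate 3 libraries 13 of 40 measured members had a lower and 4 a higher difference past the threshold. Of all 14980 genes tested in that fit 569 were lower and 1014 higher. Of 16 MHC class I and antigen processing genes, which interferons also raise, none passed for the difference with or without the block (median effects 0.247 and 0.36). Of 13 double-stranded RNA sensor genes 6 rose with each agent in the blocked fit (12.8% and 0.422% of all genes), and the difference passed for 2 higher and 2 lower (4.65% and 2.24%).

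**Figure D4:**
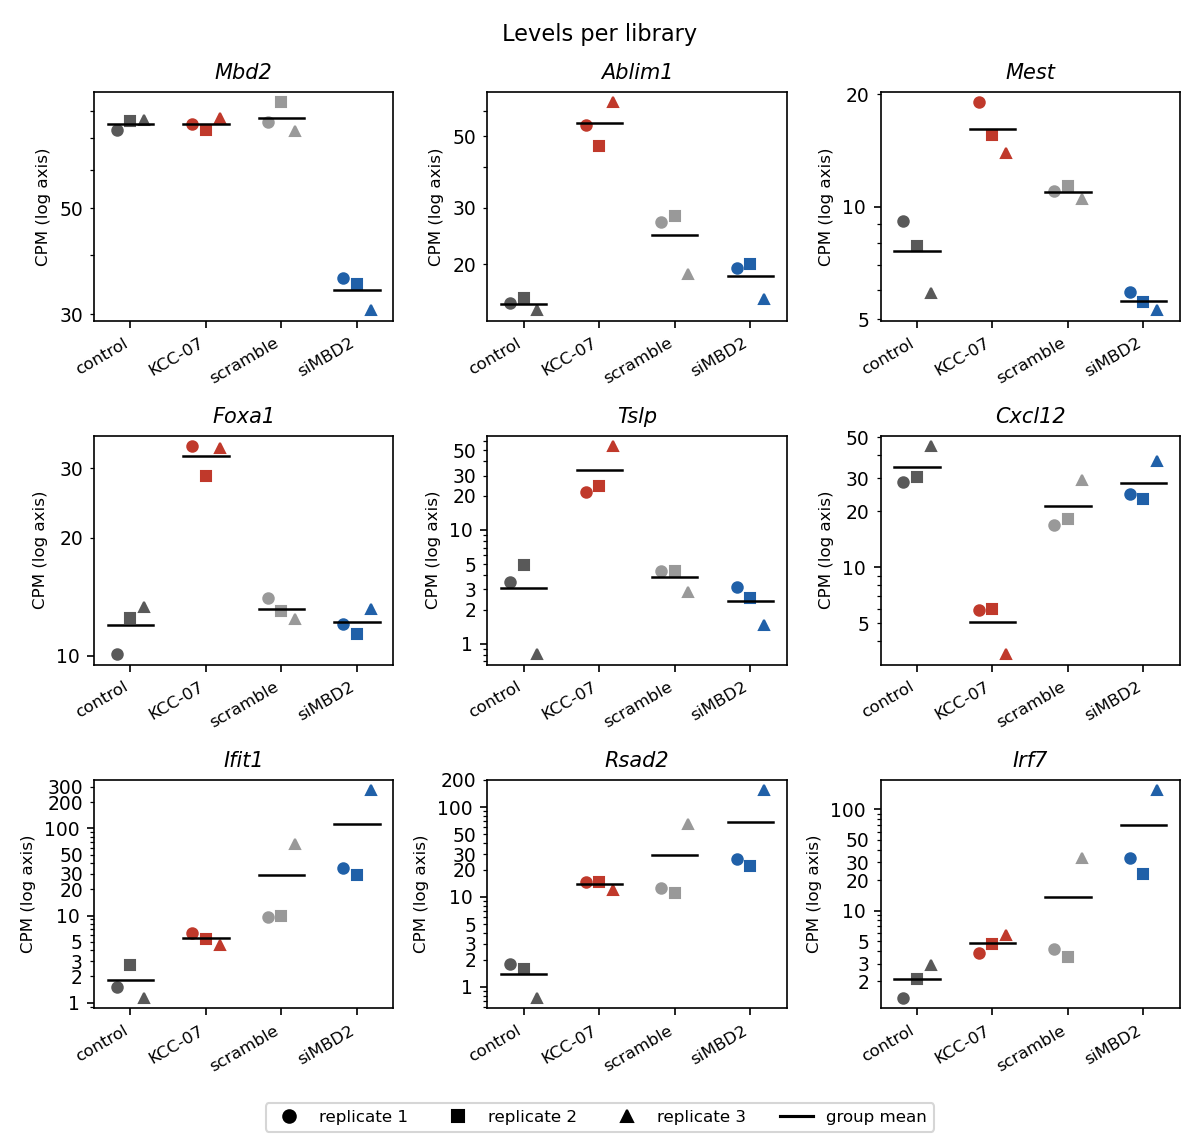
Levels in CPM (log axis) of 9 genes in the 12 libraries, by group; circles, squares and triangles are replicates 1, 2 and 3 and bars are group means. Mbd2 is low with siMBD2 and level elsewhere, Tslp, Foxa1 and Ablim1 are high with KCC-07, Cxcl12 is low with KCC-07, and the interferon genes Ifit1, Rsad2 and Irf7 are highest in siMBD2 replicate 3.

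Antioxidant genes had higher changes with the compound than with the knockdown. Of 29 targets of NRF2, the transcription factor that answers electrophiles and oxidants, 17 rose with KCC-07 (3.58% of all genes). None passed with siMBD2, where only 0.0402% of all genes did. With the block 20 and 1 rose (12.8% and 0.422%). The list had median effects of 0.631 and -0.018. The difference passed for 5, all higher (background 0.482%), and for 15 higher and 1 lower with the block (4.65% and 2.24%). The list's median difference was 0.695, against 0.0021 over all genes, with pair medians of 0.561, 0.652 and 0.877. Without the replicate 3 libraries 18 were higher and 1 lower, beside 1014 and 569 of all 14980 genes tested in that fit. Srxn1, which encodes sulfiredoxin, stood at 44.2, 42.3 and 40.5 CPM in control, 95, 108 and 146 CPM under KCC-07, 68.7, 65.6 and 55.9 CPM with scramble siRNA and 79.3, 79.1 and 77.4 CPM with siMBD2 (difference 1.15, SE 0.2, edgeR adjusted p = 0.0312). Each KCC-07 library exceeded every other library. Gsr, the glutathione reductase gene, stood at 57.6, 61 and 57.8 CPM in control, 101, 106 and 89.6 CPM under KCC-07, 82.7, 82.8 and 85.2 CPM with scramble siRNA and 82, 86 and 91.9 CPM with siMBD2 (difference 0.7). The malic enzyme gene Me1 differed by 0.73, Gclc, the catalytic subunit gene of the first enzyme of glutathione synthesis, by 0.75, and Gstm2 as given above. Slc7a11, the cystine importer gene, rose from 9.41 ± 6.07 to 48.4 ± 4.88 CPM under KCC-07 and stood at 21.2 ± 3.36 and 20.9 ± 3.87 CPM with scramble siRNA and siMBD2 (difference 2.39, edgeR adjusted p = 0.0799, blocked 0.0247). The 1 lower member with the block was Taldo1, the transaldolase gene of the pentose phosphate pathway, with effects of -0.066 and 0.58. Gclc, Slc7a11 and Taldo1 were chosen after their values were seen. The scramble libraries stood above the control libraries for Gsr and Gclc, with log2 values of scramble against control of 0.51 and 0.55, and the list's median for that comparison was 0.355. The 5 calls stayed past the threshold in 2 to 7 of the 12 fits that left out 1 library. Me1 has a near-identical copy and overlaps a gene on the opposite strand, as does Slc7a11, so both are uncertain.

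Amino acid stress genes leaned the same way. The list of ATF4 targets covers genes switched on when translation initiation is curbed under stress. Of its 30 members 27 had a positive difference, with a median of 0.629 and pair medians of 0.405, 0.239 and 1.39, so that pair 3 stood highest. Of these 1 passed without the block (0.482% of all genes) and 5 with it (4.65%), all higher. The one was Slc7a1, a cationic amino acid transporter gene, at 88.5, 121 and 86.8 CPM in control, 176, 168 and 242 CPM under KCC-07, 185, 176 and 209 CPM with scramble siRNA and 141, 144 and 168 CPM with siMBD2 (difference 1.32, edgeR adjusted p = 0.0324). Ddit4, an mTOR inhibitor gene, had effects of 0.94 and 0.028 (edgeR adjusted p of the difference = 0.0506, and 0.0068 with the block). Its control libraries were the low ones, with 1.17 for scramble against control, and the scramble and siMBD2 levels overlapped or exceeded those under KCC-07. Stc2 (1.34 and -0.065) and the serine synthesis gene Phgdh (0.036 and -0.59) also passed with the block. For Phgdh the change lay in the knockdown, though it has several near-identical copies and is uncertain. Of 27 p53 target genes none passed, and 5 higher and 1 lower passed with the block (4.65% and 2.24% of all genes), among them Mdm2, the gene for the p53 ubiquitin ligase (0.63 and 0.14).

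**Figure D5:**
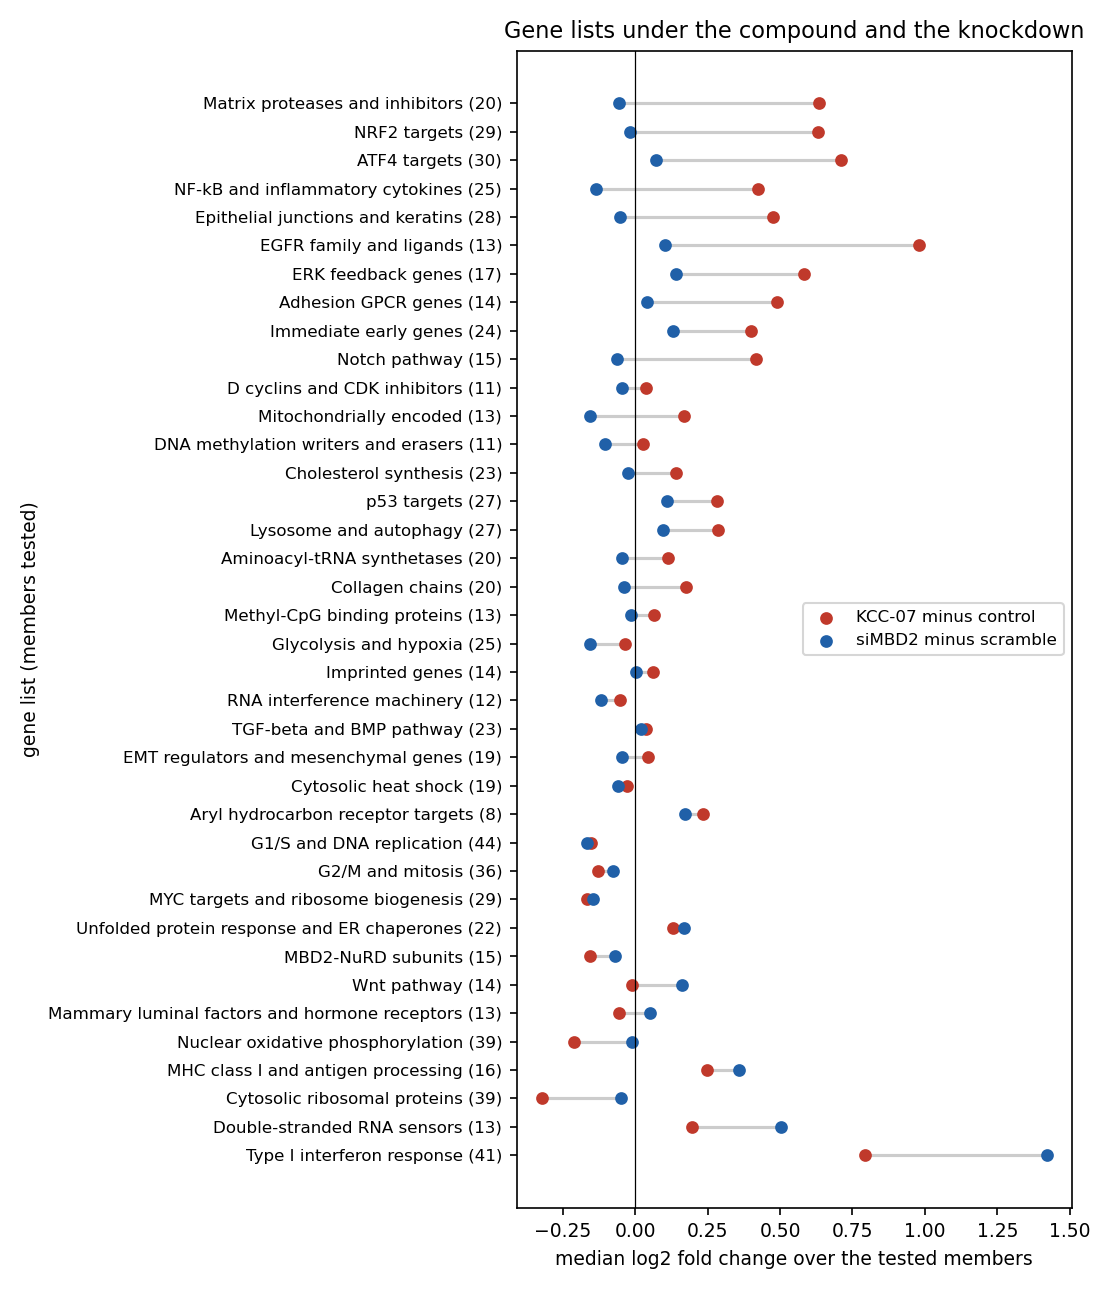
For 38 gene lists with at least 5 measured members (number in brackets), red points are the median log2 fold change with KCC-07 and blue points that with siMBD2, ordered by the median difference. The cell type marker lists are not drawn. The lists at the top lie above 0 with KCC-07 and near 0 with siMBD2, and type I interferon response genes, at the bottom, lie above 0 with both.

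Inflammatory and growth factor genes separated the agents mainly in the blocked fit. Of 25 NF-kB and inflammatory cytokine genes 23 had a positive difference (median 0.57). Of them 1 passed, Tslp (0.482% of all genes), and 7 with the block, all higher. In the blocked fit 4.65% of all genes were higher and 2.24% lower, the shares against which the counts of this and the next 4 lists stand. Il6 had effects of 2.87 and -0.43 (edgeR adjusted p of the difference = 0.11, and 0.017 with the block), the prostaglandin synthase gene Ptgs2 1.27 and -0.0079 (0.147 and 0.0167), and the cytokine gene Lif 0.81 and -0.04 (0.105 and 0.0322). None of 24 immediate early genes passed, and 8 passed with the block, among them Fosl2 (0.77 and -0.16) and Nr4a1 (0.85 and -0.28). None of 17 ERK feedback genes passed and 7 did with the block. One of them, the ERK phosphatase gene Dusp6, had pair changes of 1.13, 1.1 and 1.45 with the compound and 0.19, 0.1 and 0.14 with the knockdown, without overlap between the arms. The edgeR adjusted p of its difference was 0.339, and 0.00496 with the block. Of 13 EGFR family and ligand genes none passed and 4 passed with the block, all higher: Areg (1.8 and -0.37), Epgn (1.76 and -0.33) and Nrg1 (1.23 and -0.28), which encode ligands, and the receptor gene Erbb3 (1.12 and 0.17). Without the replicate 3 libraries 7 of the 13 were higher, beside 1014 of all 14980 genes tested in that fit. In the Notch list of 15 the block called 2 higher, Notch3, a receptor gene (2.12 and -0.37), and Jag1, a ligand gene (1.52 and -0.22), and 1 lower, the ligand gene Dll1 (-0.36 and 0.51). Nrg1, Notch3 and Dll1 overlap genes on the opposite strand and are uncertain.

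Junction and keratin genes had a positive median difference of 0.547, while their summed levels under the 2 agents overlapped. The summed level of the junction and keratin genes was 2770 to 3310 CPM in control, 3370 to 3630 CPM under KCC-07, 3510 to 3650 CPM with scramble siRNA and 3340 to 3570 CPM with siMBD2. Of 28 junction and keratin genes 15 rose with KCC-07 (3.58% of all genes) and none passed with siMBD2 (0.0402% of all genes). Their median effects were 0.476 and -0.051. The difference passed for 1, Ocln (0.482%), and for 11 with the block (4.65%), all higher, with pair medians of 0.755, 0.446 and 0.413. The tricellulin gene Marveld2 stood at 14.7, 13.3 and 13.4 CPM in control and 21.3, 23.5 and 35.7 CPM under KCC-07, but at 46.3, 41.6 and 39.3 CPM with scramble siRNA and 38.7, 43.7 and 35.4 CPM with siMBD2. As for Ocln, control was the low group. The scramble libraries lay above the KCC-07 libraries, and the siMBD2 libraries overlapped them. The cingulin gene Cgn (1.04 and -0.22) and the desmoglein gene Dsg2 (0.6 and -0.21) passed with the block, as did Krt16 (2.77 and -0.04), chosen after its values were seen. Among the mammary epithelium markers 4 of 10 were higher with the block (4.65% of all genes). Among them were Cdh1, the E-cadherin gene (0.39 and -0.11), and Cldn3 (1.55 and 0.079). Foxa1, the pioneer factor of luminal mammary cells, was called without the block. Foxa1 stood at 10.1, 12.5 and 13.3 CPM in control, 34.2, 28.8 and 33.8 CPM under KCC-07, 14, 13 and 12.4 CPM with scramble siRNA and 12, 11.4 and 13.2 CPM with siMBD2. The KCC-07 libraries stood more than 2-fold above all others, and the other 9 overlapped (difference 1.54, SE 0.18, edgeR adjusted p = 0.00676). It passed in all 12 fits that left out 1 library. Foxa1 was the one called of 13 mammary luminal factor and hormone receptor genes, where 0.482% of all genes were called higher. On the mesenchymal side Snai2, the repressor gene of epithelial genes, had effects of -1.3 and 0.27 (edgeR adjusted p of the difference = 0.0638, and 0.0091 with the block), and Postn, the periostin gene, -3.06 and -0.045 (0.0599 and 0.00042). Both fell with KCC-07. The list of 19 such genes had a median difference of 0.035, and none of it passed without the block. The part of a changed mix of cells in these values was not tested. Dsg2, Marveld2 and Cldn3 overlap other genes on the opposite strand and Krt16 has a near-identical copy, Gm11597, so they are uncertain.

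The 20 measured genes of the list of matrix proteases and their inhibitors had a median difference of 1.04. The pair medians were 0.745, 0.365 and 1.22, the last being the highest. The difference passed for 1 (0.482% of all genes) and for 4 with the block (4.65%), all higher. Plat, the tissue plasminogen activator gene, stood at 11.4, 10.2 and 11.1 CPM in control, 32.4, 25.6 and 41.6 CPM under KCC-07, 6.72, 7.68 and 5.87 CPM with scramble siRNA and 7.07, 7.66 and 7.74 CPM with siMBD2 (called in 5 of the 12 fits that left out 1 library; difference 1.46, SE 0.24, edgeR adjusted p = 0.029). Its compound libraries lay above all others. Adamts1 (0.93 and -0.15) passed with the block, as did Plau.

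Ribosomal protein genes and nuclear genes of respiration leaned the other way by small amounts, and mitochondrially encoded genes did not. All 39 cytosolic ribosomal protein genes had a negative difference, with a median of -0.28 and medians of -0.32 with KCC-07 and -0.047 with siMBD2. None passed, with or without the block. A negative difference with an unadjusted p under 0.05 was reached by 4, against 6.18% of all genes. Without the replicate 3 libraries 15 were lower, beside 569 of all 14980 genes tested in that fit. The pair medians of the difference were -0.37, -0.27 and -0.053, with pair 3 nearest to 0. Of 39 nuclear oxidative phosphorylation genes 36 had a negative difference (median -0.16, pair medians -0.41, -0.12 and 0.0074), and Ndufs3 passed with the block, with effects of -0.4 and 0.083. It overlaps Kbtbd4 and has a near-identical copy, so it is uncertain. All 13 mitochondrially encoded genes of the respiratory chain had a positive difference (median 0.281, pair medians 0.446, 0.205 and 0.437), and none passed with or without the block. Ribosomal protein genes share short transcripts and many processed copies, and the part of RNA quality in their shift was not tested.

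Cell cycle lists had median differences near 0. Of 44 G1/S and DNA replication genes 22 had a positive and 22 a negative difference (median 0.0072), and the 36 G2/M genes had a median of 0.0063. With the block the difference passed for 3 G1/S genes, all higher, and for 2 G2/M genes higher and 2 lower (4.65% and 2.24% of all genes). Anln, which encodes the cytokinesis scaffold anillin, had effects of 0.43 and -0.13 (edgeR adjusted p of the difference = 0.067, and 0.0251 with the block). E2f2, an S-phase transcription factor gene, stood at 12, 14.4 and 14.6 CPM in control, 21.7, 21 and 24.4 CPM under KCC-07, 23.4, 22.3 and 19.4 CPM with scramble siRNA and 18.7, 18.4 and 15.6 CPM with siMBD2 (difference 1.02, SE 0.18, edgeR adjusted p = 0.0334). Control was the low group, with 0.67 for scramble against control, and the call held in 2 of the 12 fits that left out 1 library. E2f1 had effects of 0.52 and -0.25 (edgeR adjusted p of the difference = 0.0521, and 0.0161 with the block). Among D cyclin and CDK inhibitor genes, Ccnd1 had 0.37 and -0.15 (0.067 and 0.0251) and its partner kinase gene Cdk4 -0.6 and 0.026 (0.0654 and 0.0103). Both overlap genes on the opposite strand and are uncertain. Of 27 lysosome and autophagy genes 2 passed, Atg9b and Uvrag, an autophagy regulator gene (difference 0.64), against 0.482% of all genes. The Uvrag call held in 2 of the 12 fits that left out 1 library, and since other genes overlap Uvrag from the opposite strand, its value is uncertain. Of the lists of cytosolic heat shock, MYC target, cholesterol synthesis and collagen genes, none passed without the block.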

How the data were processed

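RNA was measured in 12 libraries. The deposited table holds raw counts per gene, made by the authors. The processing notes of the submitters list mm10, GRCm38.p6, DRAGEN and DESeq2 1.44.0 without saying what each was used for, and the strand setting is not given in the sources used here. Counts were tested with edgeR 4.0.16 (R 4.3.3, limma 3.58.1): TMM scaling, filterByExpr (minimum count 10, minimum total 15), 1 quasi-likelihood fit over the 4 groups with 8 residual degrees of freedom, and Benjamini-Hochberg adjustment over all 14935 genes at 0.05. The difference was the contrast of the 2 effects. The procedure was tested on simulated data with the same spread for all genes and no shift between replicates. It therefore does not show how the tests behave under the replicate differences seen here. Totals ran from 25.8 to 34.0 M counts, and replicates differed beyond counting noise in every group (the lowest ratio of chi-square to its degrees of freedom was 3.41).

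The block used the replicate number within each arm (4 residual degrees of freedom), since the batch entry of the labels gives same-numbered libraries the same biological replicate; it names no day. Deviations of same-numbered libraries from their group means correlated at 0.27, 0.28 and 0.48 in the compound arm and 0.092, 0.15 and 0.42 in the siRNA arm. Differently numbered replicates 1 and 2 correlated about as well, and better in the siRNA arm (0.21 and 0.18), so their pairing rests on the labels. The library names number replicate 3 differently in the 2 arms. P-values measure the spread between these libraries.

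Named genes had a mean of at least 2 CPM. They were the 12 largest called differences in each direction, up to 10 genes called in both effects in each pattern, up to 5 called with siMBD2 in each direction, up to 4 per list by adjusted p of the difference, and Mbd2, Mbd3 and Adgrb1. No gene was called in both effects without the block, so that part was applied to the blocked fit, a choice made after seeing the data, as were list counts without replicate 3 and with DESeq2. The members and the 44 gene lists were chosen with earlier results of these data known. Alternatives were other scaling and filters, both blocks, DESeq2 1.42.0, other thresholds and leaving out libraries. Overlaps and near-identical copies (blastn 2.17.0) came from a GRCm38 annotation.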

Additional observations from a re-analysis of the deposited data

How the results depend on the processing

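All 98 called differences kept their sign in every alternative, and all passed with the replicate block, with DESeq2 and without the replicate 3 libraries. Their number was 98, and it became 176 with no filter on low counts, 1030 with the replicate block, 268 with a block shared by the arms, 575 with DESeq2, 1583 without the libraries of replicate 3, 10 at an adjusted p under 0.01 and 62 with an absolute log2 of at least 1. The 844 calls with KCC-07 became 3251 with the replicate block, 1563 with the shared block, 1824 with DESeq2, 3832 without replicate 3, 145 at 0.01 and 255 with the fold limit. The 6 calls with siMBD2 became 112, 70 and 162 with the replicate block, DESeq2 and without replicate 3, 3 at 0.01 and 1 with the fold limit. Genes called in both effects in the same direction (0) became 40 with the replicate block, 1 with the shared block, 7 with DESeq2 and 46 without replicate 3. Those in opposite directions (0) became 12, 3 and 16 with the replicate block, DESeq2 and without replicate 3. The correlation of 0.0428 became -0.00745 with no filter.

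Leaving out 1 library gave 11 to 320 differences, 384 to 2112 calls with KCC-07, 2 to 30 with siMBD2, 0 to 3 shared in direction, 0 to 2 opposite, and a correlation from -0.0152 to 0.0857. The number of differences was 41, 55 and 320 without control replicate 1, 2 or 3, and 56, 47 and 240 without KCC-07 replicate 1, 2 or 3. It was 13, 14 and 33 without scramble replicate 1, 2 or 3, and 13, 11 and 21 without siMBD2 replicate 1, 2 or 3. The cause was not tested. With 3 libraries a group, the median half-width of 0.528 limits what small differences can be seen.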

Other observations

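Several genes outside the lists had a difference past the threshold, and those named here were chosen after their values were seen. Sema3c and Sema3e, which encode secreted semaphorins, differed by 0.95 and 1.37 (edgeR adjusted p = 0.0347 and 0.0213), and Nrp2, which encodes a semaphorin co-receptor, by 0.77 (0.0312). Sema3c stood at 89, 105 and 70.3 CPM in control, 122, 138 and 141 CPM under KCC-07, 174, 170 and 173 CPM with scramble siRNA and 134, 138 and 134 CPM with siMBD2. The surface protein genes Pvr, the poliovirus receptor that binds the immune receptor TIGIT, and Alcam, an adhesion molecule gene, differed by 1.64 and 1.28, and Tnc, the tenascin C gene of the matrix, by 1.17. Pvr stood at 19.8, 26.9 and 20 CPM in control, 62.2, 59.6 and 78.3 CPM under KCC-07, 27.5, 25.2 and 27.1 CPM with scramble siRNA and 23.3, 23.7 and 30 CPM with siMBD2. These calls held in 3 to 4 of the 12 fits that left out 1 library, and that of Pvr in 11. Sema3e, Nrp2, Pvr and Tnc overlap genes on the opposite strand and are uncertain.

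Transcription regulator genes with a difference past the threshold included Epas1, the gene for HIF-2 alpha (0.53 with the compound and -0.31 with the knockdown), and Tead4, a partner of YAP in the Hippo pathway (0.81 and 0.062). Epas1 differed by 0.84 (edgeR adjusted p = 0.0259), while Hif1a was one of the 6 genes lower with the knockdown. Alpl, the alkaline phosphatase gene, and S100a13, a calcium-binding protein gene, had negative differences, of -0.79 and -0.9 (edgeR adjusted p = 0.0434 and 0.0434). The calls for Alpl and S100a13 held in 2 of the 12 fits that left out 1 library, that for Tead4 in 3 and that for Epas1 in 6. Adar, the RNA-editing enzyme gene that limits sensing of double-stranded RNA, rose with both agents in the blocked fit, with effects of 0.36 and 0.68. Tead4 and Adar overlap genes on the opposite strand and are uncertain. Ywhaz, a gene of the scaffold proteins that bind phosphoserine, fell with both in that fit, with -0.32 and -0.44.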
